A study of Mus musculus with 16 samples.

Results

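The liver transcription factor genes Hnf4a, Foxa1, Foxa2, Foxa3, Cebpa, Cebpb, Nr5a2 and Onecut1 were followed in Hepa1-6 cells, a mouse hepatoma cell line. They were chosen by name as regulators of hepatocyte identity, are 8 of the 22392 gene symbols of the table, and each stands with the transcript that has the largest sum over the 16 libraries. Messenger RNA was measured by RNA-seq, and ribosome-protected footprints by Ribo-seq of the same lysate. The groups were WT Hepa1-6 cells and 3 Eef1d exon 5 KO clones of that line (KO1, KO2 and KO3 for clones #1, #2 and #3), with 2 replicates of each line in each assay. Eef1d encodes a subunit of the translation elongation factor complex EEF1B, and exon 5 was cut out with CRISPR-Cas9 and a pair of guides. By the study's methods KO1 and KO2 had the same pair, and KO3 had a pair in which 1 guide was another. Each KO line grew from 1 cell, so a difference between a clone and WT cells that comes from the deletion and one that comes from the cell it grew from cannot be told apart. Between KO3 and the other clones, the guides and the cell of origin cannot be told apart either. All lines grew in DMEM with serum, and the lysis buffer of every sample held cycloheximide and chloramphenicol. The study's methods call the replicates of the footprint profile biological, and neither they nor the labels say whether each was a culture of its own, so the p-values measure the spread between these samples.

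Hepatocyte identity is held by a small set of transcription factors that bind each other's genes as well as the genes of liver function. HNF4A and NR5A2 (also called LRH-1) are nuclear receptors. FOXA1, FOXA2 and FOXA3 are forkhead proteins that can bind closed chromatin. C/EBPα and C/EBPβ are basic leucine zipper proteins, and ONECUT1 (also called HNF6) joins a cut domain to a homeodomain and acts in both hepatocytes and bile duct cells. Their target genes include those for albumin, apolipoproteins, fibrinogen, gluconeogenic enzymes and bile acid synthesis.

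RNA-seq libraries held from 10493030 to 12946819 counts with 1 transcript per gene, and Ribo-seq libraries from 1138943 (KO1 replicate 2) to 4886753 (KO1 replicate 1). The count on the Eef1d transcript with exon 5 was 116% of the count on the transcript without it in both WT RNA-seq libraries, and from 89.8% to 92.6% in the 6 clone libraries. Reads on shared exons are counted on both transcripts, and the clones lay apart from WT cells in the direction of their labels.

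All members were detected in WT cells, and their order was wide. Levels are given as counts per 1000 counted codons and 1000000 counts, which sets genes of different length on 1 scale. Cebpb had the highest RNA level in WT cells, 414 ± 26.1 (SD, n = 2), followed by Hnf4a with 231 ± 8.64. Foxa2 (162 ± 2.62) and Foxa3 (157 ± 6.35) came next, and their replicates overlapped. Cebpa had 91.4 ± 0.506, Onecut1 49.6 ± 6.03, Nr5a2 26.9 ± 4.78 and Foxa1 19.8 ± 1.34. Apart from Foxa2 and Foxa3, no neighbours in this order had overlapping replicates. Among 14487 genes with RNA counts in WT cells, Cebpb lay at the 91.7th percentile, Hnf4a at the 84.3rd and Foxa1 at the 38.4th. Footprint levels in WT cells ran in nearly the same order, from 420 ± 15.7 for Cebpb to 13.7 ± 0.291 for Onecut1. There Hnf4a (229 ± 18.1) overlapped with Foxa2 (201 and 218), Foxa1 (25.3 ± 2.02) overlapped with Nr5a2 (23.7 ± 5.52), and Onecut1 was last.

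**Figure D1:**
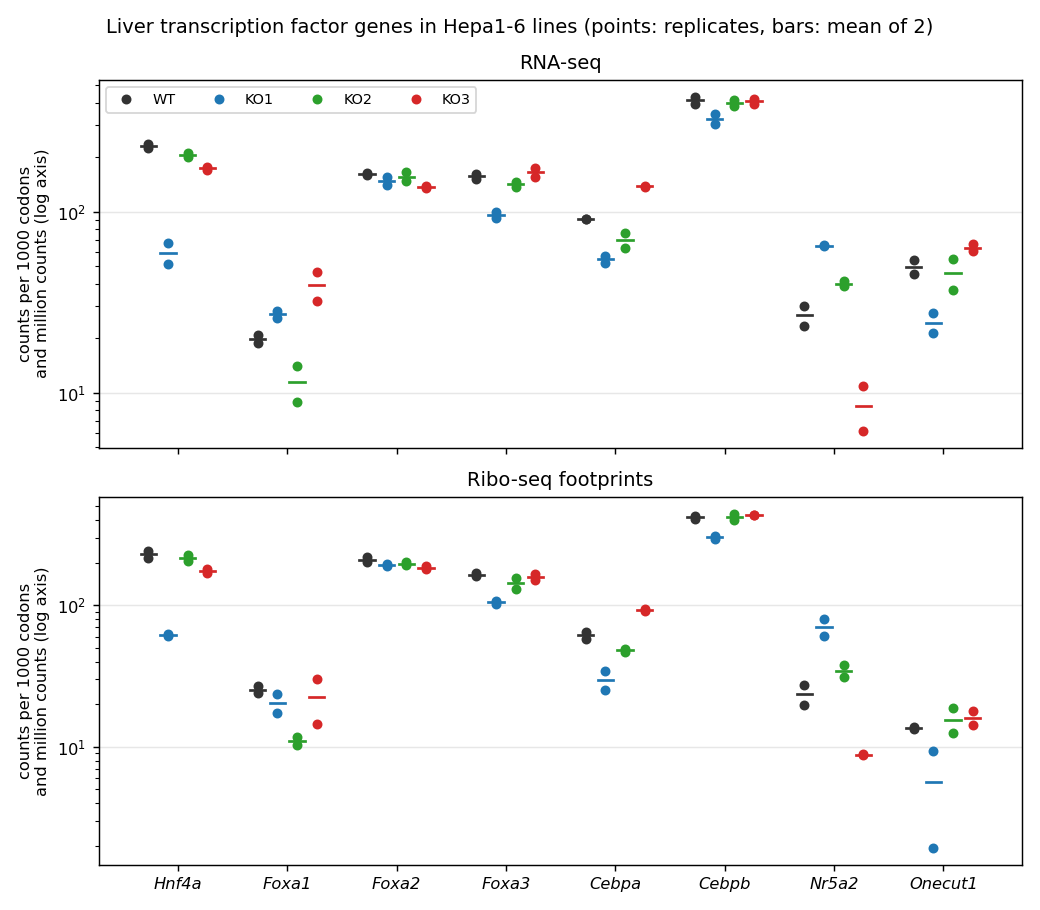
RNA levels (top) and footprint levels (bottom) of the liver factors in counts per 1000 codons and 1000000 counts on log axes, with points for the 2 replicates of each line and bars for their mean. Cebpb stayed highest in every line, Hnf4a was low in KO1, and Nr5a2 was highest in KO1 and lowest in KO3.

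Hnf4a lies on the plus strand of chromosome 2 of GRCm38, at chr2:163506808-163572910. Its RNA level was 237 and 225 in the WT libraries, 67.3 and 51.2 in KO1, 202 and 210.3 in KO2, with 171 and 178 in KO3. No clone library reached the WT range, and the KO1 libraries lay far below the rest. In KO1, Hnf4a RNA fell by 1.97 on the log2 scale (SE 0.0911, adjusted p = 2.74e-25), to 0.256 of the WT level. The KO3 change was smaller, -0.36 (SE 0.0724, adjusted p = 2.44e-05). In KO2 the difference of -0.16 (95% interval -0.30 to -0.01) did not pass the test (adjusted p = 0.139). Footprints of Hnf4a had levels of 217 and 242 in WT cells, 62.9 and 60.4 in KO1, 206 and 226 in KO2, with 181 and 169 in KO3. They fell by 1.89 in KO1 (SE 0.125, adjusted p = 1.44e-17) and by 0.34 in KO3 (SE 0.0946, adjusted p = 0.00529), and the KO2 libraries overlapped with WT. The KO3 footprint call was lost without WT replicate 2 (-0.28, adjusted p = 0.0626) and with DESeq2 (adjusted p = 0.138).

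Hnf4a is transcribed from 2 start regions, and the mouse annotation has a coding exon particular to each. The chosen transcript, ENSMUST00000018094.12, begins at the downstream start. A second transcript in the table, ENSMUST00000109411.7, begins its coding sequence further along the same exon and holds all the rest. Counting left out the first 5 codons of each coding sequence, so codons 6 to 14 were counted on the longer transcript alone. These 9 codons lie at chr2:163547320-163547346 on the plus strand, and their sequence is shown because their reads are particular to this start. The capitals mark the start codon of the shorter transcript.
Hnf4a codons 6 to 14: acccttgccggcATGgatatggccgac
No read was counted on them in any library, because both transcripts had equal counts in all 8 RNA-seq and all 8 Ribo-seq libraries. At the mean density of the transcript they would have held 141 of the 7292 RNA counts and 40.8 of the 2109 footprint counts, and a count of 0 allows up to 3, for counting error only. The same reading on Foxa2, where 6 codons separate 2 starts, gave 23 RNA counts against 83.9 at mean density and 27 footprints against 30.8. Those codons also belong to 1 of 2 transcripts, so transcript use and position near a start cannot be told apart there. Reads on the coding exon of the upstream start could not be separated from the shared exons in this table.

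The 2 start regions of Hnf4a are shown because the counts bear on which of them the reads came from. They are the GRCm38.p6 bases before each annotated start, from RefSeq, up to the first transcribed base, on the plus strand at chr2:163506607-163506807 (upstream) and chr2:163546905-163547154 (downstream). Capitals mark the only match to the motifs searched.
Hnf4a upstream start: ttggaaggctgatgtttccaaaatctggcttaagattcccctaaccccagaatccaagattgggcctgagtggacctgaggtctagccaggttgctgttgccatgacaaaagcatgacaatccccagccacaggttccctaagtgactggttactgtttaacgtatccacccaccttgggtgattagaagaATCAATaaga
Hnf4a downstream start: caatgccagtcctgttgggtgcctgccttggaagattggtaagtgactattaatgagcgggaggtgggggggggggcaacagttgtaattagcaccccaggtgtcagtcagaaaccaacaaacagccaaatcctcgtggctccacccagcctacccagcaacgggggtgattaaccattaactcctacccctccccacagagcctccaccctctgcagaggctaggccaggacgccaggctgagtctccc
The capitals are ATTGAT on the other strand, a core of ONECUT sites, 59 bases before the RefSeq start. Both strands of the 250 bases before the start were searched in 12 windows of the members and in 32851 windows of all genes. The ONECUT core was also found before Foxa2, and 6.72% of all windows hold it. The FOXA motif TGTTTAC was found before Foxa1 (3.17% of all windows), and the C/EBP motif TTGCNNAA before Nr5a2 (9.56%). The NR5A motif CAAGGTCA (1.33%), a direct repeat of HNF4 half-sites (0.0335%) and the palindromic HNF1 motif (0.00913%) were found in no member window. A match is a description of letters and shows no binding.

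**Figure D2:**
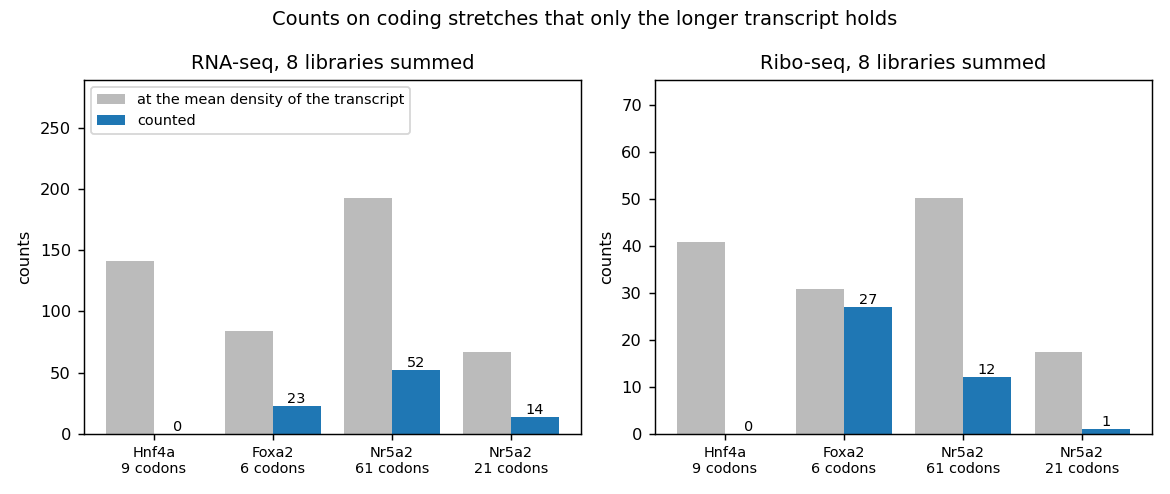
Counts on stretches of codons that only the longer transcript of a gene holds, summed over 8 RNA-seq libraries (left) and 8 Ribo-seq libraries (right), with grey bars for the count at the mean density of the transcript and blue bars for the count found. The 9 codons of Hnf4a held 0 counts in both assays, while the 6 codons of Foxa2 held 23 and 27.

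Nr5a2 had the widest range over the lines. The gene lies on the minus strand at chr1:136842571-136960448, and its product drives bile acid synthesis genes. RNA levels were 23.5 and 30.2 in WT cells, 65.2 and 64.3 in KO1, 39.0 and 41.2 in KO2, with 6.17 and 10.8 in KO3. No libraries of different lines overlapped. On the log2 scale, Nr5a2 RNA rose by 1.26 for KO1 (SE 0.126, adjusted p = 2.56e-12) and 0.59 for KO2 (SE 0.145, adjusted p = 0.00496), while KO3 fell by 1.61 (SE 0.200, adjusted p = 7.77e-11). Footprint levels were 19.8 and 27.6 in WT cells, 60.5 and 79.7 in KO1, 30.9 and 37.6 in KO2, with 8.71 and 8.83 in KO3, in the same order of lines. Footprints rose by 1.48 in KO1 (SE 0.201, adjusted p = 6.43e-08) and fell by 1.34 in KO3 (SE 0.290, adjusted p = 0.000309). In KO2 the footprint difference was 0.57 (95% interval 0.15 to 1.00, adjusted p = 0.083), and it passed the test with a replicate block (adjusted p = 0.0453) or without KO2 replicate 1 (adjusted p = 0.0424). Without WT replicate 1, the KO2 change of RNA was 0.42 (adjusted p = 0.116).

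The Nr5a2 reads were not spread evenly over its chosen transcript. The first 61 codons, which 2 shorter transcripts lack, held 52 RNA counts against 193 at mean density and 12 footprints against 50.3. A coding exon of 21 codons that another transcript skips held 14 RNA counts against 66.4 and 1 footprint against 17.3. Of the 28-base windows of this coding sequence, 10.7% also occur in the pseudogenes Gm18981 and Gm17743, so part of its reads may not have been placed uniquely.

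Of the FOXA family, Foxa1 passed the RNA test in all 3 clones, and Foxa2 and Foxa3 in 1 clone each. Foxa1 (minus strand, chr12:57540628-57546916) had RNA levels of 20.8 and 18.9 in WT cells, 25.8 and 28.4 in KO1, 8.87 and 14.1 in KO2, with 32.3 and 46.3 in KO3. Both KO1 and KO3 libraries lay above WT, and KO2 below. The RNA changes were 0.44 for KO1 (SE 0.177, adjusted p = 0.0359), -0.76 for KO2 (SE 0.227, adjusted p = 0.0186) and 1.04 for KO3 (SE 0.167, adjusted p = 1.72e-07). The KO1 call was lost without either WT replicate or KO1 replicate 2 (0.37 to 0.51, adjusted p from 0.0755 to 0.212), and the KO2 call without WT replicate 1 (-0.69, adjusted p = 0.0953) or KO2 replicate 1 (-0.47, adjusted p = 0.159). DESeq2 kept neither, and with all libraries in 1 fit the KO1 value had an adjusted p of 0.0637. Footprint counts of Foxa1 were low, 44 and 26 in WT cells, 53 and 9 in KO1, 19 and 16 in KO2, with 58 and 22 in KO3. The matching levels were 26.7 and 23.9, then 23.6 and 17.2, 10.4 and 11.7, and 30.3 and 14.6. Foxa1 footprints fell by 1.21 in KO2 (SE 0.287, adjusted p = 0.0045), a call that was lost without WT replicate 1 (-1.09, adjusted p = 0.103) and with DESeq2 (adjusted p = 0.217). In KO3, where its RNA rose, the footprint difference was -0.10 (95% interval -0.61 to 0.42, adjusted p = 0.819).

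Foxa2 (minus strand, chr2:148042877-148046969) encodes a factor needed for the foregut of the embryo. Its RNA levels were 164 and 160.2 in WT cells, 155 and 140.4 in KO1, 147 and 166 in KO2, with 136 and 138 in KO3. The differences were -0.14 for KO1 (95% interval -0.30 to 0.01), -0.04 for KO2 (-0.21 to 0.13) and -0.19 for KO3 (-0.35 to -0.04). Only the KO3 value passed (adjusted p = 0.0405), and it was lost when any 1 of the 4 libraries was left out (adjusted p from 0.0745 to 0.196). It was also lost with DESeq2 (adjusted p = 0.131), without a filter on low counts (0.0536) and with all libraries in 1 fit (0.0622). Its footprint levels were from 180.1 to 218 over the 8 libraries, and no footprint difference passed the test.

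Foxa3 (minus strand, chr7:19013284-19023538) had RNA levels of 152 and 161 in WT cells, 99.6 and 92.3 in KO1, 137 and 147 in KO2, with 156 and 175 in KO3. The KO2 libraries lay just below WT and the KO1 libraries further down, with a change of -0.71 in KO1 (SE 0.0951, adjusted p = 9.13e-09). KO2 (-0.13, adjusted p = 0.341) and KO3 (0.13, adjusted p = 0.249) did not pass. Footprints of Foxa3 also fell in KO1, by 0.68 (SE 0.136, adjusted p = 9.08e-05), and with DESeq2 that adjusted p was 0.0637. Coding sequences within a family share stretches, shown so that their length can be set against that of a read. A read no longer than such a stretch can fit more than 1 gene. The longest run shared by Foxa1 and Foxa3, and that shared by Cebpa and Cebpb, are as follows, with no letter marked.
Foxa1 and Foxa3: tggatcatggacctcttccc
Cebpa and Cebpb: cgcaacaacatcgcggtgcgcaagagccg
The Foxa1 and Foxa3 run of 20 bases is in Foxa2 as well, and is shorter than the 28-base windows searched. It is also shorter than every footprint length listed in the study's methods, so no such footprint fits within it. Foxa1 and Foxa2 have 11 such windows in common, 0.80% of the windows of each. How many Foxa1 footprints fall in them was not tested. Foxa3 and Hnf4a share no 28-base window with another gene.

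Cebpa and Cebpb did not move alike. Cebpa (plus strand, chr7:35119293-35121928) encodes a factor that keeps hepatocytes from dividing. Its RNA levels were 91.7 and 91.0 in WT cells, 52.3 and 57.2 in KO1, 63.3 and 76.7 in KO2, with 139 and 137 in KO3. The libraries of KO1 and KO2 lay below WT and those of KO3 above. The change of Cebpa RNA was -0.75 for KO1 (SE 0.119, adjusted p = 5.68e-07), -0.37 for KO2 (SE 0.119, adjusted p = 0.0289) and 0.65 for KO3 (SE 0.0965, adjusted p = 2.17e-08). The KO2 call was lost without either WT replicate or KO2 replicate 1 (-0.38 to -0.24, adjusted p from 0.0952 to 0.198) and with DESeq2 (adjusted p = 0.134). Footprint levels were 57.4 and 65.1 in WT cells, 34.5 and 25.1 in KO1, 49.4 and 46.8 in KO2, with 91.8 and 93.9 in KO3. They fell by 0.91 in KO1 (SE 0.223, adjusted p = 0.00134) and rose by 0.65 in KO3 (SE 0.159, adjusted p = 0.00129). With DESeq2 these adjusted p-values were 0.148 and 0.0996.

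Cebpb (plus strand, chr2:167688915-167690418), a factor of the acute-phase response, had RNA levels of 432 and 396 in WT cells, 347 and 304 in KO1, 385 and 414 in KO2, with 396 and 421 in KO3. Both KO1 libraries lay below WT, and those of the other clones overlapped with it. Its RNA fell by 0.35 there (SE 0.0716, adjusted p = 5.08e-05), and its footprints by 0.48 (SE 0.100, adjusted p = 0.000204, and 0.0555 with DESeq2). In KO2 and KO3 the RNA differences were -0.04 (95% interval -0.18 to 0.10) and 0.03 (-0.10 to 0.16). Cebpa and Cebpb share a run of 29 bases in the part that encodes the DNA-binding region, which gives 2 windows of 28 bases in common.

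Onecut1 (plus strand, chr9:74861921-74891781) had RNA levels of 53.9 and 45.4 in WT cells, 27.5 and 21.3 in KO1, 37.0 and 55.2 in KO2, with 60.6 and 66.0 in KO3. It fell by 1.02 in KO1 (SE 0.153, adjusted p = 1.38e-07) and rose by 0.40 in KO3 (SE 0.118, adjusted p = 0.00332), and the KO2 libraries overlapped with WT. The KO3 call was lost without WT replicate 2 (0.28, adjusted p = 0.137) and with DESeq2 (adjusted p = 0.0518). Onecut1 footprints were few, with 22 and 15 counts in WT cells, 21 and 1 in KO1, 34 and 17 in KO2, with 27 and 27 in KO3. No footprint difference passed the test, and the KO1 value was -0.80 (95% interval -1.59 to -0.01, adjusted p = 0.144). That normal interval is narrower than the edgeR test allows, whose unadjusted p was 0.054. Of its 28-base windows, 21.1% occur in other annotated genes, among them Gm20649, a noncoding gene annotated over the same locus, and the paralog Onecut3.

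**Figure D3:**
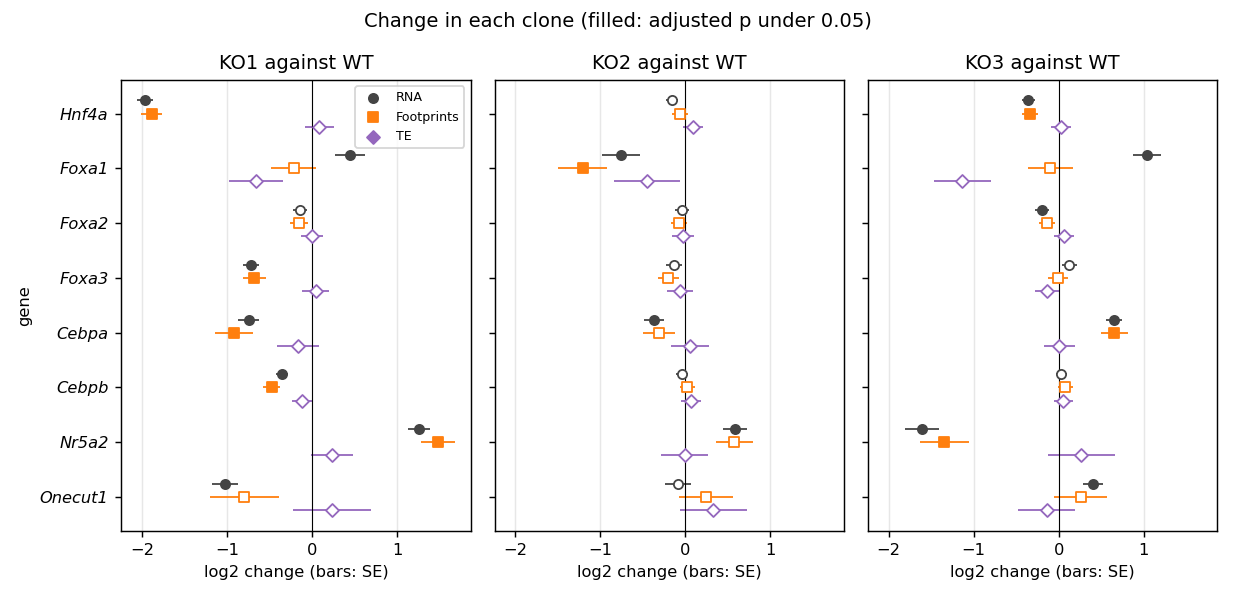
Log2 change of RNA, footprints and translation efficiency (TE) against WT in each clone, with bars for the standard error and filled symbols for an adjusted p under 0.05. In KO1 Hnf4a had the lowest values, -1.97 for RNA and -1.89 for footprints, and no TE symbol is filled in any clone.

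Counted over the members, 7 of 8 passed the RNA test in KO1 (2 higher, 5 lower), where 46.7% of all genes tested passed (22.1% higher, 24.6% lower). In KO2, 3 of 8 passed (1 higher, 2 lower), against 20.4% of all genes (11.6% higher, 8.84% lower). In KO3, 6 of 8 passed (3 higher, 3 lower), against 45.4% (23.1% higher, 22.3% lower). Cebpa, Foxa1 and Nr5a2 passed in all 3 clones, and each of these moved in both directions over the clones, as did Onecut1. With DESeq2, the Foxa1 calls in KO1 and KO2, the Cebpa call in KO2 and the Onecut1 call in KO3 were lost. The share of all genes that passed in all 3 clones, or in both directions, was not counted. The members had a median log2 change of -0.53 (KO1), -0.11 (KO2) and 0.08 (KO3), and that of all genes was 0.00 in each. For footprints, 5 of 8 members passed with KO1 (26.9% of all genes), 1 with KO2 (11.7%) and 3 with KO3 (30.6%). Whether the 3 clones differ from each other was tested over the 8 libraries of each assay, and 7 of 8 members passed for RNA (74% of all genes) and 7 of 8 for footprints (59.5%). Foxa2 was the exception in both (adjusted p = 0.235 and 0.792). Leaving out KO2 replicate 1 gave Foxa2 RNA an adjusted p of 0.0497. Where they were counted, the shares of all genes stand beside the counts as the background, and counts over 8 genes are a description.

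TE was taken as footprint CPM over RNA CPM in the same lysate, where CPM are counts scaled to a library total of 1000000. Onecut1 had a TE of 0.25 and 0.306 in the WT lysates, a mean of 0.278 ± 0.0396 (SD, n = 2), at the 6.99th percentile of 10721 genes whose median was 0.861. It was the lowest member in all 8 lysates, from 0.0903 (KO1 replicate 2, with 1 footprint) to 0.506 (KO2 replicate 1). Cebpa was next in WT cells with 0.670 ± 0.0631, and the others lay between 0.876 ± 0.0496 for Nr5a2 and 1.30 ± 0.0949 for Foxa2. TE compares 2 assays, so its level also carries what differs between the library protocols. Of the 28-base windows of Onecut1, 21.1% occur in other annotated genes, and the part of this in its TE was not tested.

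No member passed the edgeR test of TE, the interaction of line and assay in any clone, where 0.0942% (KO1), 0.0173% (KO2) and 0.104% (KO3) of all genes passed. At an unadjusted p under 0.05 there was 1 member for KO1, 0 for KO2 and 1 for KO3, and DESeq2 called no member and had 0, 0 and 1 at that unadjusted level. The shares above hold for adjusted p alone. At the unadjusted level, edgeR without a filter on low counts had 929 of 16146 genes in KO1 and 783 of 16104 in KO3. DESeq2 had 283 of 11680 genes in KO1 and 294 of 11566 in KO3. The edgeR member in both KO1 and KO3 was Foxa1. Its TE was 1.29 and 1.26 in WT lysates, 0.917 and 0.605 in KO1, 1.17 and 0.824 in KO2, with 0.938 and 0.315 in KO3. Both Foxa1 intervals leave out 0 and neither adjusted p passed. The differences were -0.66 in KO1 (95% interval -1.27 to -0.04, adjusted p = 0.688) and -1.13 in KO3 (-1.79 to -0.48, adjusted p = 0.292). Without KO3 replicate 1, the KO3 value was -2.04 and passed (adjusted p = 0.0285), with 22 footprints in the library that stays. For Hnf4a in KO1, where RNA and footprints both fell, the TE difference was 0.09 with a 95% interval from -0.25 to 0.43. The intervals of Nr5a2, -0.26 to 0.73 in KO1 and -0.51 to 1.04 in KO3, were wider. A test of whether TE differs between the clones called no member either, against 1.03% of all genes, with 0 at an unadjusted p under 0.05 and 0 by DESeq2.

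**Figure D4:**
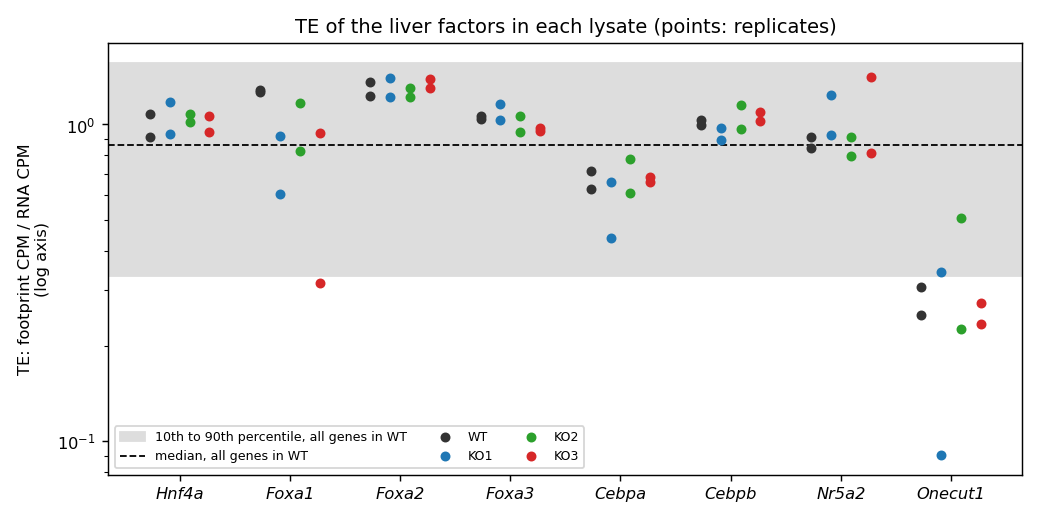
TE of the liver factors in the 8 lysates on a log axis, with points for the 2 replicates of each line, a dashed line for the median of all genes in WT cells and a grey band for their 10th to 90th percentile. Onecut1 lies below the other members in every lysate, and the KO3 point of Foxa1 at 0.315 stands apart from its replicate.

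Other regulators of liver genes were counted over a list of 35. Of these, 20 had at least 100 counts in both WT RNA-seq libraries, and 10 stayed under 10 counts in all RNA-seq libraries (Nr1i2, Nr0b2, Ppara, Gata6, Creb3l3, Nr2f1, Mlxipl, Klf15, Hlf and Lhx2). None was at 0 in all 16 libraries, but Gata6 and Nr2f1 had no count in any RNA-seq library. Their footprint counts per library were at most 1 for Gata6 and at most 6 for Nr2f1. The highest RNA levels in WT cells were those of Hhex, a homeobox gene of the early liver bud (344 ± 0.502), Atf5 (328 ± 25.4) and Cebpg (227 ± 4.95). Hhex passed in KO1 (-0.19, adjusted p = 0.0294) and in no other clone. Atf5 RNA fell by 1.63 in KO1 (adjusted p = 2.45e-22) and rose by 0.96 in KO3 (adjusted p = 6.03e-22). In KO1 5 of 24 tested rose and 9 fell, in KO2 1 of 25 rose and 4 fell, and in KO3 7 of 25 rose and 7 fell. Of all genes, 46.7%, 20.4% and 45.4% passed in KO1, KO2 and KO3, so the share of the list in KO2 was about that of all genes. Tbx3, Onecut2 and Nr2f2 passed in all 3 clones, and the share of all genes that did so was not counted.

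Tbx3, a T-box gene of hepatoblast growth, had 905 and 808 RNA counts in WT cells, 2250 and 1815 in KO1, 606 and 692 in KO2, with 327 and 363 in KO3. Its changes were 1.28, -0.42 and -1.44 in that order of clones (adjusted p = 1.73e-21, 0.00188 and 1.11e-23). Onecut2, the paralog of Onecut1, fell by 2.28 in KO1, from 379 and 363 counts to 77 and 72 (adjusted p = 4.89e-19), and rose by 0.38 in KO2 and 0.30 in KO3 (adjusted p = 0.0144 and 0.0102). Nr2f2 (COUP-TFII) had changes of -0.74, -0.30 and 0.42 in the same order (adjusted p = 1.49e-08, 0.0319 and 3.87e-05).

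**Figure D5:**
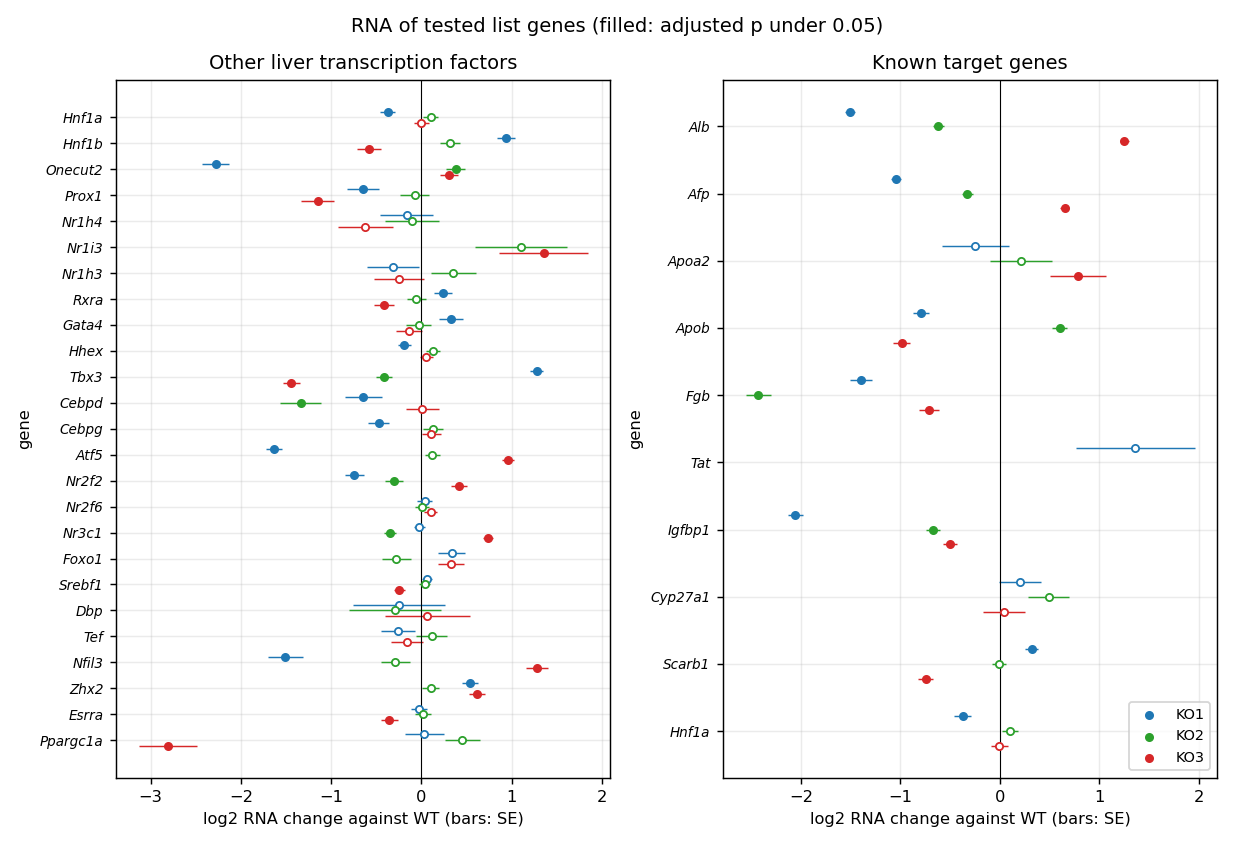
Log2 RNA change against WT of the tested genes of the list of other liver transcription factors (left) and of the list of known target genes (right), with bars for the standard error and filled points for an adjusted p under 0.05. Onecut2 at -2.28 and Igfbp1 at -2.06 are the lowest KO1 points of their lists.

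Of 30 known target genes of these factors, 29 had a row, 17 stayed under 10 counts in all RNA-seq libraries and 7 were at 0 in all 16 libraries. Pck1 and G6pc of gluconeogenesis and Cyp7a1 and Cyp8b1 of bile acid synthesis were among those under 10. Cyp27a1, another gene of bile acid synthesis, had 81 and 75 RNA counts in WT cells and from 75 to 137 in the clones. These 5 were named after their values were seen. The 3 highest in WT cells were Alb (albumin, level 1285 ± 48.9), Afp (alpha-fetoprotein, the albumin relative of fetal liver and hepatoma, 1219 ± 64.9) and Igfbp1 (631 ± 17.8). In KO1 1 of 10 tested rose and 6 fell, in KO2 1 of 9 rose and 4 fell, and in KO3 3 of 9 rose and 4 fell. Over all genes tested, the share that rose was 22.1% for KO1, 11.6% for KO2 and 23.1% for KO3, and the share that fell was 24.6%, 8.84% and 22.3%. As medians, the targets had -0.59 (KO1), -0.01 (KO2) and 0.00 (KO3).

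Alb RNA counts were 8618 and 8724 in WT cells, 3030 and 2922 in KO1, 5579 and 5774 in KO2, with 22180 and 22982 in KO3. The change was -1.51 for KO1 (SE 0.0474, adjusted p = 1.04e-32), -0.62 for KO2 (SE 0.0549, adjusted p = 1.47e-08) and 1.25 for KO3 (SE 0.0433, adjusted p = 7.65e-43). Alb was also the target whose TE differed between the clones (adjusted p = 0.0176), a gene chosen after its value was seen. Afp moved with the same signs, -1.04, -0.33 and 0.65 (adjusted p = 5.24e-26, 0.000106 and 7.22e-23). Igfbp1 fell in every clone, with changes of -2.06, -0.67 and -0.50 (adjusted p = 4.86e-30, 2.33e-07 and 1.49e-09). Fgb, which encodes the fibrinogen beta chain, fell in every clone too, with changes of -1.40, -2.43 and -0.72 (adjusted p = 6.13e-16, 3.51e-12 and 3.32e-09). Apob, the main protein of very low density lipoprotein, had changes of -0.80, 0.60 and -0.99 (adjusted p = 1.54e-12, 2.92e-06 and 1.90e-18).

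The hepatocyte label was checked against its markers. Of 15 hepatocyte markers with a row, 8 had at most 3 counts in WT RNA-seq, Cyp2e1, Cyp3a11 and Otc were at 0 in every RNA-seq library, and Alb, Apob and Fgb carried most of the sum. Their summed CPM was 894 to 939 in WT libraries, 343 to 354 in KO1, 609 to 692 in KO2 and 1794 to 1908 in KO3. Cholangiocyte markers, mainly Spp1, Sox9 and Krt7, summed to 448 to 465 CPM in WT cells, 127 to 135 in KO1, 623 to 625 in KO2 and 805 to 875 in KO3. Markers of fetal liver and hepatoma summed to 715 to 778 CPM in WT cells, 361 to 362 in KO1, 587 to 642 in KO2 and 1112 to 1162 in KO3. Of the other lists, stellate cell markers summed in RNA-seq to at most 8.52 CPM, endothelial markers to at most 2.39 and macrophage markers to at most 21.9, with Lrat, Lyve1, Adgre1 and Clec4f at 0 in every RNA-seq library. The macrophage sum was 9.27 to 10.8 in WT cells and 21.8 to 21.9 in KO1, through Csf1r. In Ribo-seq the stellate cell marker Acta2, smooth muscle actin, had 863 and 615 footprints in WT cells and from 312 to 1255 in the clones. Its RNA counts were 2 to 10 over all lines, so the low RNA sum of that list does not hold for its footprint counts. Windows shared with other genes were searched for the members alone, so whether these footprints come from Acta2 was not tested. The part of any of these in the results of the factors was not tested, and fewer cells of a type and less RNA per cell cannot be told apart in these counts.

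For each factor the genes with the most similar RNA profile over the 8 RNA-seq libraries were taken among 9003 genes, by Pearson's r of log2 CPM. These were Ubl7 (r = 0.995) and Uqcrc1 (0.992) for Hnf4a, Sh3tc1 (0.996) and Dstyk (0.993) for Nr5a2, and Prelid1 (0.997) and Pkm (0.994) for Cebpa. Foxa1 had Bcl2l1 (0.995) and Fam120a (0.991), Foxa3 Egr1 (0.985) and Nop53 (0.985), Cebpb Zfp710 (0.981) and Itpr3 (0.975), and Onecut1 Hes1 (0.987) and Cic (0.981). Foxa2 had Homer3 (0.943) and Fam89b (0.943). The libraries fall into 4 lines, so a high r is reached by many genes, and no other member was among the most similar genes of a member.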

How the data were processed

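RNA-seq and Ribo-seq were made from the same lysates of 4 lines with 2 replicates each (16 libraries). The authors deposited raw counts per transcript, without normalization or pooling. Per the labels and the study's methods, reads were trimmed with fastp 0.21.0, reads of noncoding RNA were removed, and the rest were aligned to mm10 with STAR 2.7.0a, assigned on GENCODE vM23 and counted at the A-site on coding sequences without their first and last 5 codons. A read that fits several transcripts was counted on each. The labels name polyA RNA and the protocol describes rRNA depletion, which was not settled.

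Tests used edgeR 4.0.16 (quasi-likelihood, filterByExpr, TMM within each assay, R 4.3.3) on 1 transcript per gene, the pair of lines alone, with Benjamini-Hochberg adjustment over all genes and a threshold of 0.05. TE was tested as the interaction of line and assay without a block for the lysate, and the difference between clones as an F test. Log2 values are those of the fit, and scripts were tested on simulated data. The 95% intervals are normal intervals from the SE of the fit, somewhat narrower than the quasi-likelihood test allows. Levels divide counts by counted codons and by the library total. Alternatives were DESeq2 1.42.0, its size factors in edgeR, other filters, all transcripts, all libraries in 1 fit, TMM over both assays, a replicate block, a lysate block and each replicate left out. The labels tie RNA-seq and Ribo-seq to 1 lysate, and the deviations of these pairs correlated over 5147 genes in every line (r = 0.209, 0.249, 0.132 and 0.122 in WT, KO1, KO2 and KO3). Gene positions are from GENCODE vM21 on GRCm38.

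Named by rule were the 8 members, the other factors called in all 3 clones or with the 3 highest WT levels, the targets with the 3 highest WT levels or the 4 largest mean changes among those called in at least 2 clones, and per member the 2 genes of highest r. The members, lists and tests were chosen with earlier results of these data known.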

Additional observations from a re-analysis of the deposited data

Results flagged for a closer look

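The changes of 7 of the 8 members differed between the clones, by the F test of equal changes in KO1, KO2 and KO3. For RNA the adjusted p was 1.94e-18 for Hnf4a, 3.48e-09 for Foxa1, 5.28e-09 for Foxa3, 1.50e-13 for Cebpa, 8.11e-05 for Cebpb, 3.64e-16 for Nr5a2 and 3.83e-09 for Onecut1. For footprints it was 5.04e-16 for Hnf4a, 0.00406 for Foxa1, 0.000138 for Foxa3, 3.98e-09 for Cebpa, 5.39e-06 for Cebpb, 3.94e-13 for Nr5a2 and 0.0258 for Onecut1. The footprint value of Onecut1 rests on single libraries, with an adjusted p of 0.123 without KO1 replicate 2, 0.0502 without KO2 replicate 1 and 0.0543 without KO3 replicate 2. That of Foxa1 was 0.0727 without KO2 replicate 1. With DESeq2 neither passed (adjusted p = 0.181 for Onecut1 and 0.128 for Foxa1). The WT libraries do not enter this contrast and only share in the estimate of the spread. Of all genes, 74% passed this test for RNA and 59.5% for footprints.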

How the results depend on the processing

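The footprint depth (1138943 counts in the smallest library) and 2 replicates a line limit small changes, above all for Onecut1 and Foxa1. Of the member changes under alternatives other than a left-out replicate, 520 kept their direction and their side of the threshold, 14 lost a call, 1 gained one and 5 changed sign, and with a replicate left out these numbers were 235, 16, 2 and 35. No sign change touched a value that passed the test, and the cause of the others was not tested.

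With DESeq2, calls over all genes fell to 1404 for RNA in KO2, and for footprints to 859 in KO1, 324 in KO2, 1232 in KO3 and 3831 for the difference between clones, and members called to 1 for RNA in KO2 and to 2, 0 and 1 for footprints in KO1, KO2 and KO3. TE calls with DESeq2 were 19 in KO1 and 7 in KO3. Libraries of WT and a clone with the same replicate number deviated together (r = 0.287, 0.144 and 0.100 for RNA and 0.140, 0.130 and 0.085 for footprints, with KO1, KO2 and KO3), a hint from the data, since the labels do not say what the number marks across lines. With a replicate block there were 2 members for footprints in KO2, and TE calls of 58 in KO1, 4 in KO2 and 247 between clones. A lysate block gave TE calls of 83, 4 and 407, and changed no call of a member. Without a filter TE calls were 20 in KO1 and 19 in KO3, with at least 10 counts 1 in KO2, and with all libraries in 1 fit 7 in KO3. The main TE counts were 11, 2 and 12 in KO1, KO2 and KO3 and 123 between clones.

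Leaving out 1 replicate gave from 1390 to 2523 RNA calls in KO2 (2346 with all), from 1381 to 2806 footprint calls in KO1 (2777) and from 710 to 1060 in KO2 (1213). TE calls were then from 4 to 11 in KO1, from 1 to 2 in KO2, from 2 to 6 in KO3 and from 60 to 128 between clones. Members called were from 0 to 3 for RNA in KO2, from 4 to 5 for RNA in KO3, from 0 to 2 and from 2 to 3 for footprints in KO2 and KO3, and from 0 to 1 for TE in KO3.

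Signs turned for log2 values near 0 and for some further from it. Among the latter, with all libraries, were TE of Onecut1 in KO1 (0.23) and KO2 (0.33) and of Nr5a2 in KO3 (0.27). TE of Hnf4a in KO1 was -0.00095 with a lysate block and TE of Foxa2 in KO1 0.012 with a replicate block. TE of Nr5a2 in KO2 was 0.012 with TMM over both assays. TE of Cebpa in KO3 was -0.0016 with all transcripts and -0.00027 with all libraries in 1 fit. With 1 replicate left out, RNA values in KO2 ran from -0.14 to 0.050 for Foxa2, from -0.11 to 0.024 for Cebpb and from -0.42 to 0.17 for Onecut1, and in KO3 from -0.034 to 0.097 for Cebpb. Footprint values in KO2 ran from -0.14 to 0.0081 for Hnf4a, from -0.061 to 0.083 for Cebpb and from -0.11 to 0.46 for Onecut1, and in KO3 from -0.77 to 0.28 for Foxa1 and from -0.074 to 0.061 for Foxa3. TE values in KO1 ran from -0.083 to 0.23 for Hnf4a, from -0.088 to 0.094 for Foxa2, from -0.029 to 0.12 for Foxa3 and from -1.61 to 0.35 for Onecut1. In KO2 they ran from -0.017 to 0.18 for Hnf4a, from -0.093 to 0.027 for Foxa2, from -0.14 to 0.021 for Foxa3, from -0.12 to 0.24 for Cebpa, from -0.079 to 0.18 for Cebpb, from -0.098 to 0.094 for Nr5a2 and from -0.29 to 0.88 for Onecut1. In KO3 they ran from -0.080 to 0.12 for Hnf4a, from -0.076 to 0.080 for Cebpa and from -0.070 to 0.71 for Nr5a2.

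With the sum of reads per codon as the total, WT RNA levels ran from 6.14 (Foxa1) to 128 (Cebpb), a change of scale.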
